A study of Mus musculus with 9 samples.

Results

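Genes of the Th1 and cytotoxic effector programme were followed in mouse CD4+ T cells of allergic airway inflammation. The 10 genes were the transcription factors Tbx21, Eomes and Hlx, the cytokine Ifng, the granule genes Gzma, Gzmb, Gzmk, Prf1 and Nkg7, and the surface receptor Klrg1. They were chosen by name, through probe sets that list only that gene. Each had 1 such probe set, so that 10 of the 19937 measured genes are described.

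RNA was measured on 9 Affymetrix arrays, 3 for each of 3 groups of sorted cells. The naive group held CD44- CD4+ T cells of the spleen, taken at day 29 from sham-treated mice. Acute Th2 cells, positive for CD4, CD69 and a further surface marker, came from the lung at day 29 after 3 days in a row of 1% ovalbumin aerosol. Chronic Th2 cells were sorted by the same markers from lungs taken at day 104, when aerosol had been given for 12 weeks. The mice that gave Th2 cells had been sensitised by intraperitoneal injections of 10 µg ovalbumin on 1.5 mg aluminium hydroxide. By the labels, all cells, the naive ones included, were activated after the sort for 8 h with antibodies to CD3 and CD28, and RNA was then extracted. The study asked how chronic allergic inflammation persists, and the comparisons here ask how far Th1 and cytotoxic genes take part in the RNA of these Th2 cells.

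Spleen and lung cannot be told apart from naive and Th2 state, nor day 29 and day 104 from acute and chronic stage. Neither the mouse strain nor any pooling of animals is given in the sources used here. The labels call the replicates biological without naming animals, and a p therefore measures only how these samples spread, which may be technical, and the number of arrays limits the precision. In bulk RNA, fewer cells of a type and less RNA per cell cannot be told apart.

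Th1 cells are the CD4+ T cells that make interferon-γ. Their lineage factor T-bet, encoded by Tbx21, is induced by interferon-γ and interleukin 12 and opposes the Th2 factor GATA3. Cytotoxic lymphocytes kill through granules that hold perforin, which forms pores, and granzymes, the proteases that enter through them. KLRG1 is an inhibitory receptor of differentiated effector lymphocytes.

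Levels are log2 intensities after robust multi-array averaging (RMA), so that a difference of 1 is a doubling of the probe signal. As a measure of background, a level was set against the 95th percentile of the 1015 olfactory receptor genes on the same array, since T cells are not known to express these. That percentile lay at 6.35 to 6.51 on the naive arrays, at 6.32 to 6.68 on the acute Th2 arrays and at 6.57 to 7.14 on the chronic Th2 arrays. Chronic Th2 replicates 1 and 2 therefore had the highest backgrounds, at 7.14 and 6.88. Levels of different genes come from different probes and are not compared with each other.

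Naive replicate 1 stood apart from its group, and several genes induced by stimulation were low there, although the label says that it was activated. Its Il2, a cytokine that T cells make soon after stimulation, was at 5.07, against 11.33 and 11.27 on the other naive arrays and 8.95 to 12.01 on the Th2 arrays. The summed signal of 8 genes induced by stimulation was 12.33 there on the log2 scale, against 14.60 to 14.92 on the other 8 arrays. Irf4, a factor induced by T cell receptor signals, read 6.87 there and 11.58 to 11.89 on the others. Tnfrsf9 read 7.32 there and 10.85 to 12.18 on the others, and Egr2 7.96 there and 10.56 to 11.16 on the others. Il2ra read 9.39 there and 12.03 to 13.3 on the others. The rest of these 8 genes differed less. Nr4a1 read 10.72 there, 12.66 and 12.88 on the other naive arrays, and 10.71 on chronic Th2 replicates 1 and 2. Egr1 read 10.03 there and 10.54 to 11.05 on the others, and Myc 10.19 there and 10.74 to 12.19 on the others. Whether this array was stimulated was not tested, and a difference from naive cells averages it with the other 2. Correlations between arrays over all genes were 0.939 to 0.991 among naive arrays, 0.987 to 0.996 among acute Th2 arrays and 0.981 to 0.990 among chronic Th2 arrays. For several genes whose results rest on naive replicate 1, values are given with and without it, and others enter only the counts.

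The labelled cell types were set against their markers. All 5 measured CD4+ T cell markers were above background on every array, and the 4 measured Th2 markers Gata3, Il4, Il5 and Il13 rose in both Th2 groups. Their summed signal was 8.99 to 9.89 in naive, 14.33 to 14.50 in acute Th2 and 14.22 to 14.41 in chronic Th2 cells. Of the CD8+ T cell markers, Cd8a was above background on no array and Cd8b1 on 6, including all 3 naive arrays (7.89, 7.14 and 6.77). Cd8b1 was highest on naive replicate 1, as were all 5 measured CD4+ T cell markers. The pair summed to 7.58 to 8.27, 7.40 to 7.50 and 7.45 to 7.56. All 6 measured NK cell and ILC1 markers were above background on no array, with sums of 7.61 to 7.77, 7.61 to 7.71 and 7.72 to 7.89. The 4 NKT and γδ T cell markers summed to 8.70 to 8.82, 8.62 to 8.74 and 8.80 to 8.91. Of these, Sox13 and Cd163l1 were above background on 8 arrays, Zbtb16 on 7 and Blk on none. All 6 mast cell and basophil markers were at background throughout. The 2 measured naive T cell markers, Ccr7 and Lef1, summed to 11.75 to 12.74, 9.49 to 10.10 and 9.29 to 9.85, and both fell in both Th2 groups. Of 6 macrophage and monocyte markers, Cd68 was above background on all 9 arrays and the other 5 on none. The 2 measured B cell markers were above it on none. Of 3 epithelial markers, Epcam was above it on 1 array.

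The 250 bases before the transcription start are shown for 3 of the genes that rose in both Th2 groups, since these share a direction. The letters are from the RefSeq promoter table on the mouse build GRCm38.p6 and run 5′ to 3′ on the strand of the gene. Of the 10 genes, 9 have an entry there, and Klrg1 is named only. Capitals mark matches on either strand to 1 of 4 short motifs, which do not overlap here: GGTGTGA for T-box factors, TGANTCA for AP-1, TGTGGT for Runx factors and GGAAA for NFAT.
Tbx21, chr11:97115332-97115581, minus strand: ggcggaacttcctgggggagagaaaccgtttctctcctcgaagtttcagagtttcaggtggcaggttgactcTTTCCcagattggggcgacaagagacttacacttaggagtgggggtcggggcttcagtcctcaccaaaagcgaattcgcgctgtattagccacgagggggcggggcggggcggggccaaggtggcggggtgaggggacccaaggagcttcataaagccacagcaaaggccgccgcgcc
Ifng, chr10:118440796-118441045, plus strand: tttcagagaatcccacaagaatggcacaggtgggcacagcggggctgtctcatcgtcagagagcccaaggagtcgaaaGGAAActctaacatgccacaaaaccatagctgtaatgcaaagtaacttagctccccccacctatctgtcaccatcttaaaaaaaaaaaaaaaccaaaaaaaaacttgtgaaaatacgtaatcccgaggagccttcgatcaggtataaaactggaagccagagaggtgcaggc
Gzmb, chr14:56262335-56262584, minus strand: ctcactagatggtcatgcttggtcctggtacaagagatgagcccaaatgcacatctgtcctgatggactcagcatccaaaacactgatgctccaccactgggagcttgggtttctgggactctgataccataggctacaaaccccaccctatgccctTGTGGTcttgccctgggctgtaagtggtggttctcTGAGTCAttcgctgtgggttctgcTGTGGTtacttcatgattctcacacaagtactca

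The Gzmb stretch holds 1 AP-1 and 2 Runx matches. Tbx21 and Ifng hold 1 NFAT match each and none of the other motifs. Among the 9 genes, the T-box letters occur before Gzmk and Nkg7, AP-1 before Gzmb, Runx before Gzma, Gzmb, Prf1 and Nkg7, and NFAT before Tbx21, Hlx, Ifng, Gzma and Nkg7. Of 32526 promoters of the same length, 3.33% hold the T-box letters, 6.73% AP-1, 14.0% Runx and 55.7% NFAT. A match describes letters and does not show binding.

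Tbx21, Ifng, Gzmb and Klrg1 rose in both Th2 groups against naive cells, and Gzma in acute Th2 cells. In acute Th2 cells 5 of the 10 genes rose and 0 fell, where 5.87% of all 19937 genes were called, 3.67% higher and 2.2% lower (limma, adjusted p under 0.05 over all genes). In chronic Th2 cells 4 rose and 0 fell, where 7.88% of all genes were called, 3.68% higher and 4.2% lower. The median difference of the 10 genes was 0.40 in acute and 0.59 in chronic Th2 cells, against medians of -0.03 and 0.04 over all genes. The acute count was 3 without naive replicate 3, without any 1 of the acute Th2 arrays and without chronic Th2 replicate 1 or 2, and the chronic count ranged from 3 to 5 on leaving out 1 array. Of all genes, 3.28% to 12.2% were called in acute and 3.68% to 17.2% in chronic Th2 cells on leaving out 1 array. Both comparisons share the naive arrays. The smallest two-sided p of an exact permutation test with 3 arrays a group is 0.1, so the tests are those of the fit across all genes.

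**Figure D1:**
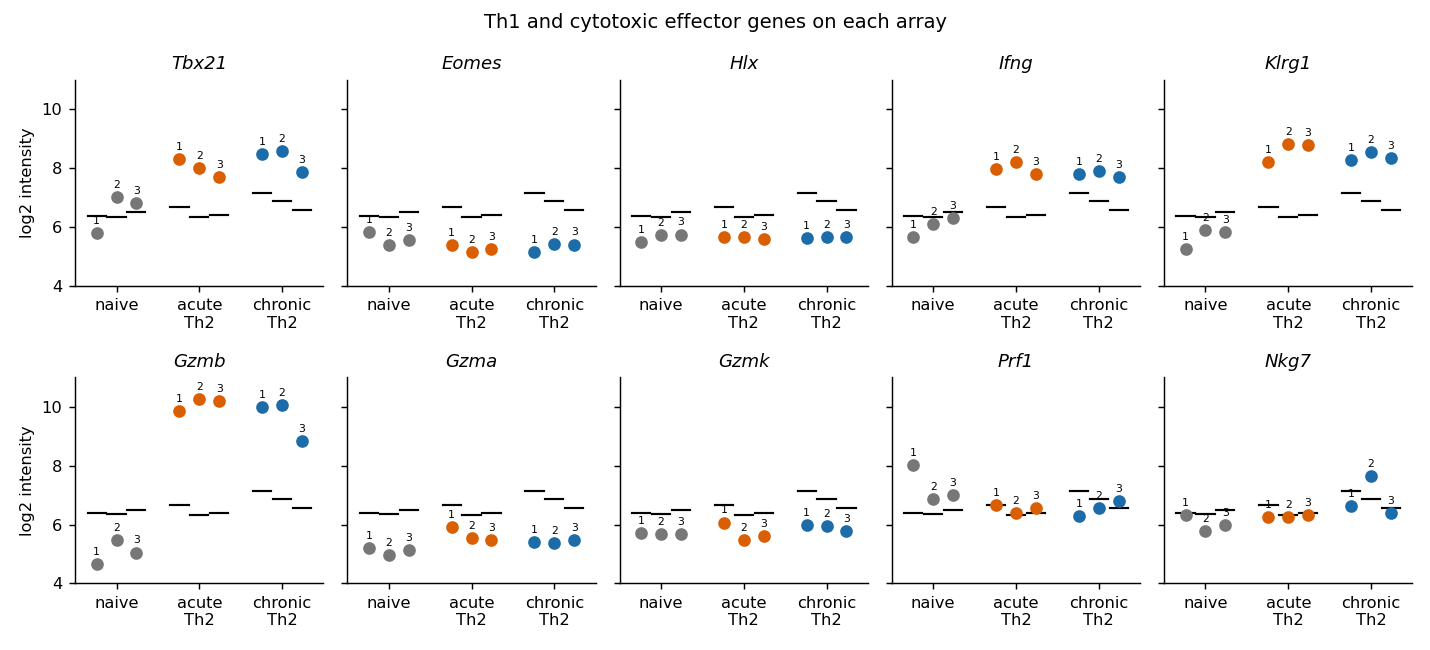
Log2 intensity (vertical axis) of the 10 genes on each array, 1 panel per gene. Dots are arrays numbered by replicate within naive, acute Th2 and chronic Th2 cells, and black ticks are the 95th percentile of olfactory receptor genes on that array. Gzmb, Klrg1 and Ifng lie above every tick in both Th2 groups and below every tick in naive cells, while Eomes, Hlx, Gzma and Gzmk lie below the ticks on all 9 arrays.

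Tbx21 encodes T-bet. Its level was 5.78, 7.03 and 6.82 on the naive arrays, 8.30, 8.00 and 7.69 on the acute Th2 arrays and 8.46, 8.57 and 7.85 on the chronic Th2 arrays. All 6 Th2 arrays were above all 3 naive arrays, and of the naive arrays replicate 1 was the lowest and the only one below background. The rise was 1.46 ± 0.33 (SE) in acute Th2 cells (limma adjusted p = 0.0382) and 1.75 ± 0.33 in chronic Th2 cells (adjusted p = 0.0155). Without naive replicate 1 it was 1.08 (adjusted p = 0.0169) and 1.37 (adjusted p = 0.00436). The acute call was lost without naive replicate 3, without any 1 of the acute Th2 arrays, and without chronic Th2 replicate 1 or 2, with an adjusted p of at most 0.141. The chronic call was lost without chronic Th2 replicate 1 (adjusted p = 0.075) or 2 (adjusted p = 0.0688).

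Eomes, the T-box factor of CD8+ T and NK cells, stayed under the background level on all 9 arrays. It read 5.38 to 5.84 in naive, 5.16 to 5.37 in acute Th2 and 5.14 to 5.43 in chronic Th2 cells. The naive arrays lay just above the acute Th2 arrays, without overlap, and overlapped the chronic ones. The difference was -0.33 (95% interval -0.64 to -0.03, limma adjusted p = 0.259) in acute and -0.27 (-0.57 to 0.04, adjusted p = 0.246) in chronic Th2 cells.

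Hlx, a homeobox factor that works with T-bet on Ifng, was also under the background level on all arrays, at 5.49 to 5.74. Its group means were 5.65 ± 0.14 in naive, 5.64 ± 0.03 in acute Th2 and 5.65 ± 0.02 in chronic Th2 cells (SD, n = 3 each). The 95% interval of its acute difference from naive cells was -0.21 to 0.19. At this signal over background a difference in Hlx or Eomes RNA would be hard to detect.

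Ifng, the interferon-γ gene, was at 5.67, 6.09 and 6.29 on the naive arrays, 7.97, 8.21 and 7.81 on the acute Th2 arrays and 7.80, 7.91 and 7.70 on the chronic Th2 arrays. The naive arrays were all under background and the Th2 arrays all above it, with no overlap. It rose by 1.98 ± 0.17 in acute Th2 cells (limma adjusted p = 0.000194) and by 1.79 ± 0.17 in chronic Th2 cells (adjusted p = 0.000344). Without naive replicate 1 the rise was 1.80 and 1.61, with adjusted p-values of 4.42e-05 and 8.89e-05. By size of rise it ranked 176th of all genes in acute and 184th in chronic Th2 cells.

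Gzmb, the granzyme that cleaves caspases and so starts apoptosis in target cells, had the largest rise of the 10 genes in both comparisons. It read 4.67, 5.49 and 5.05 in naive cells, 9.86, 10.28 and 10.21 in acute Th2 cells and 10.00, 10.06 and 8.83 in chronic Th2 cells. Every Th2 array was above every naive array, and chronic Th2 replicate 3 was the lowest of the Th2 arrays. The rise was 5.05 ± 0.34 in acute (limma adjusted p = 4.53e-05) and 4.56 ± 0.34 in chronic Th2 cells (adjusted p = 8.89e-05). It was the 12th largest rise of all genes in acute and the 18th in chronic Th2 cells. The naive arrays were under background, so that the difference is one of probe signal and need not measure the ratio of RNA.

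Of the other granule genes, Gzma passed the test in 1 comparison and Gzmk, Prf1 and Nkg7 in none. Gzma, a tryptase of T and NK cell granules, read 4.95 to 5.20 in naive, 5.46 to 5.92 in acute Th2 and 5.37 to 5.48 in chronic Th2 cells, under background on all 9 arrays. Both Th2 groups lay above the naive arrays without overlap. The acute difference of 0.55 ± 0.13 passed the test (limma adjusted p = 0.0447), and the chronic difference of 0.32 did not (95% interval 0.03 to 0.62, adjusted p = 0.166). The acute call was lost on leaving out any 1 array other than naive replicate 1, with an adjusted p of at most 0.133.

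Gzmk, a granzyme of memory T cells, was under background on all 9 arrays, at 5.48 to 6.07. Its differences from naive cells were 0.02 (95% interval -0.32 to 0.35) in acute and 0.21 (-0.12 to 0.54) in chronic Th2 cells. Neither passed the test.

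Prf1, the perforin gene, read 8.04, 6.87 and 7.02 on the naive arrays, 6.68, 6.38 and 6.56 on the acute Th2 arrays and 6.30, 6.55 and 6.80 on the chronic Th2 arrays. All 6 Th2 arrays lay under all 3 naive arrays, and naive replicate 1, the array without Il2, was the highest. The difference was -0.77 (95% interval -1.42 to -0.13, limma adjusted p = 0.201) in acute and -0.76 (-1.41 to -0.12, adjusted p = 0.139) in chronic Th2 cells, so that neither passed the test. Without naive replicate 1 it was -0.41 (adjusted p = 0.142) and -0.40 (adjusted p = 0.114). Prf1 was above background on all naive and acute Th2 arrays, and on the chronic Th2 arrays only on replicate 3. Background was highest on chronic Th2 replicates 1 and 2, at 7.14 and 6.88. The chronic minus acute difference of Prf1 was 0.009 (95% interval -0.637 to 0.655). Cd8b1 was also highest on naive replicate 1, as were Cd4, Cd3d, Cd3e, Cd3g, Lat, Ccr7 and Lef1. Cd4 read 10.81 there and 9.49 and 9.60 on the other naive arrays. The part of these markers in the Prf1 values was not tested.

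Nkg7, a membrane protein of cytotoxic granules that takes part in their release, was above background on 1 of 9 arrays. It read 6.32, 5.78 and 5.98 in naive cells, 6.26, 6.27 and 6.32 in acute Th2 cells and 6.64, 7.64 and 6.38 in chronic Th2 cells. Chronic Th2 replicate 2 was the one above background. The chronic difference of 0.86 (95% interval 0.19 to 1.52) did not pass the test (limma adjusted p = 0.114), but did without chronic Th2 replicate 3, at 1.11 (adjusted p = 0.0484). The acute difference was 0.25 (-0.41 to 0.92, adjusted p = 0.794).

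Klrg1 read 5.26, 5.88 and 5.84 in naive cells, all under background. On the acute Th2 arrays it was at 8.20, 8.83 and 8.78, and on the chronic Th2 arrays at 8.27, 8.53 and 8.33. The naive and Th2 arrays did not overlap, and the Th2 groups did. It rose by 2.94 ± 0.21 in acute Th2 cells (limma adjusted p = 7e-05) and by 2.72 ± 0.21 in chronic Th2 cells (adjusted p = 0.000119).

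**Figure D2:**
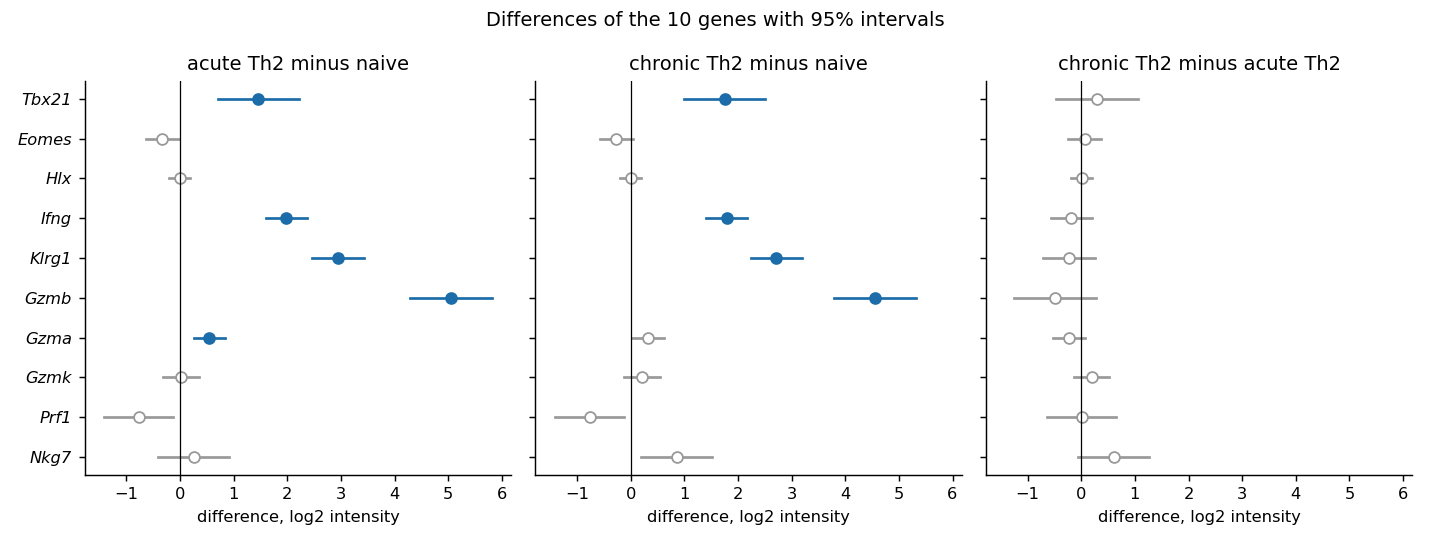
Difference in log2 intensity (horizontal axis) of each of the 10 genes in the 3 comparisons, with 95% intervals of the moderated limma fit. Filled points passed an adjusted p of 0.05 over all genes. Gzmb, Klrg1, Ifng and Tbx21 are filled in both comparisons with naive cells, and no point is filled between the Th2 groups.

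Counted by arrays that do not overlap, 5 of the 10 genes were higher in acute Th2 cells than in naive cells and 2 were lower, where 8.8% of all genes were higher and 10.9% lower (19.7% in all). In chronic Th2 cells 7 were higher and 1 was lower, where 15.6% of all genes were higher and 12.3% lower (27.9% in all). The 7 include Gzma and Gzmk, under background on all 9 arrays, and Nkg7, above it on 1. The median of the olfactory receptor genes was 4.94 to 5.10 on naive, 4.98 to 5.21 on acute Th2 and 5.15 to 5.67 on chronic Th2 arrays. The part of background in these counts was not tested.

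None of the 10 genes passed the test between chronic and acute Th2 cells. Of all genes 0.0301% were called in that comparison, 6 in number and 0.015% in each direction, and of the 10 genes 0 reached an unadjusted p of 0.05, which 14.9% of all genes did. The median of the 10 differences was 0.01. For the 4 genes that rose in both groups the chronic minus acute difference was 0.30 for Tbx21 (95% interval -0.46 to 1.06), -0.19 for Ifng (-0.57 to 0.19), -0.49 for Gzmb (-1.26 to 0.28) and -0.23 for Klrg1 (-0.71 to 0.25). The intervals thus hold differences of up to 1.06 for Tbx21 and down to -1.26 for Gzmb. Nkg7 was the one gene whose chronic arrays all lay above the acute ones, by 0.60 (-0.06 to 1.27, limma adjusted p = 0.356), where 11.8% of all genes did so.

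The genes around this programme were followed through 5 lists with 68 symbols, of which 63 were measured. In acute Th2 cells 9 of the 63 rose and 4 fell, with a median difference of 0.01, where 5.87% of all genes were called. The 13 calls became 27 without naive replicate 1 and 8 without acute Th2 replicate 2 or 3. Of all genes, 12.2%, 3.42% and 3.28% were called in these fits. In chronic Th2 cells 9 rose and 4 fell, with a median of 0.06, where 7.88% of all genes were called, and the calls became 26 without naive replicate 1. The 9 that rose were the same genes in both, namely Il12rb1, Il18rap, Il2rb, Id2, Zeb2, Cxcr6, Tnfsf10, Stx11 and Cst7. Ltb, Fasl and Crtam fell in both.

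In the list of Th1 induction and signalling, 5 of 19 measured genes rose and 0 fell in both Th2 groups, with medians of 0.28 and 0.31. Of all genes, 3.67% rose and 2.2% fell in acute and 3.68% rose and 4.2% fell in chronic Th2 cells, and the counts of the other lists stand against the same shares. Il12rb1, the receptor chain that the receptors for interleukins 12 and 23 share, was at 7.28 to 7.81 in naive, 9.24 to 9.44 in acute Th2 and 8.83 to 9.24 in chronic Th2 cells. It rose by 1.73 (limma adjusted p = 0.000313) and 1.42 (adjusted p = 0.00104). Its partner in the interleukin 12 receptor, Il12rb2, read 5.36 to 5.71 over the 9 arrays and was above background on none.

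Il18rap, the accessory chain of the interleukin 18 receptor, read 5.66 to 5.95 in naive, 7.76 to 8.17 in acute Th2 and 7.06 to 8.25 in chronic Th2 cells. It rose by 2.17 (limma adjusted p = 0.0022) and 1.72 (adjusted p = 0.00742). Il18r1, the other chain of that receptor, differed by 0.28 and -0.07 and did not pass the test (adjusted p = 0.884 and 0.942). Il18r1 was highest on naive replicate 1, at 8.59. Il2rb, the chain that carries signals of interleukins 2 and 15, was at 8.78 to 9.21 on naive and 11.06 to 11.37 on Th2 arrays. It rose by 2.21 and 2.17, with adjusted p-values of 2e-05 and 2.1e-05. Id2, an inhibitor of E-proteins in effector T cells, rose by 1.96 and 2.28 (adjusted p = 0.00457 and 0.00192).

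Zeb2, a repressor that acts with T-bet in terminal effector cells, read 5.46, 7.46 and 6.92 on naive arrays and 8.39 to 8.73 on Th2 arrays. It rose by 1.94 (limma adjusted p = 0.0311) and 1.99 (adjusted p = 0.0248). Naive replicate 1 was the lowest, and without it the rise was 1.36 and 1.42. The Zeb2 call was lost in 7 of 9 single leave-outs in acute and 5 of 9 in chronic Th2 cells, with adjusted p-values up to 0.123 and 0.0887.

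In the list of Th1 homing and effector products, 2 of 11 measured genes rose and 2 fell in both Th2 groups, with medians of -0.66 and -0.53. Cxcr6, a chemokine receptor of tissue T cells, went from 5.61 to 6.03 in naive to 11.08 to 11.43 in Th2 cells. It rose by 5.39 (limma adjusted p = 1.72e-07) and 5.51 (adjusted p = 8.23e-08). Cxcr3, the chemokine receptor by which Th1 cells are often marked, read 6.66 to 7.06 over all 9 arrays and was above background on 8 of them.

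Tnfsf10, the death ligand TRAIL, was at 6.80 on naive replicate 1, at most at 5.36 on the other naive arrays and at 8.41 to 8.70 on Th2 arrays. It rose by 2.88 (limma adjusted p = 0.00274) and 2.74 (adjusted p = 0.00347). Fasl, the other death ligand of the list, moved the opposite way. It read 6.49, 7.74 and 7.27 on naive and 5.74 to 5.98 on Th2 arrays, all 6 of the latter under background. It fell by 1.34 in both groups (adjusted p = 0.0213 and 0.02). The Fasl calls were lost without naive replicate 3 in both groups, without any 1 acute Th2 array in the acute comparison (adjusted p up to 0.0913), and without chronic Th2 replicate 1 or 2 in the chronic one (up to 0.0861).

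Ltb, which encodes lymphotoxin β, was at 9.14 to 9.91 on naive, 7.46 to 8.02 on acute Th2 and 7.41 to 7.76 on chronic Th2 arrays. It fell by 1.76 (limma adjusted p = 0.00209) and 2.01 (adjusted p = 0.000947). Lta and Tnf, the other 2 genes of that cluster, depended on naive replicate 1. Lta read 6.74 there and 9.20 and 9.33 on the other naive arrays, against 6.36 to 6.70 on Th2 arrays. Tnf read 7.65 there and 10.71 and 11.01 on the others, against 7.72 to 8.50 in acute and 6.96 to 8.24 in chronic Th2 cells. With all arrays neither passed the test, with differences of -1.92 and -1.83 for Lta and -1.64 and -2.40 for Tnf. Without that array Lta fell by 2.76 and 2.67 (adjusted p = 1.35e-06 and 1.69e-06) and Tnf fell by 2.71 and fell by 3.47 (adjusted p = 0.00179 and 0.000403).

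Leaving out naive replicate 1 raised the calls among the 63 genes to 14 higher and 13 lower in acute and 13 higher and 13 lower in chronic Th2 cells, where 12.2% and 17.2% of all genes were called. The chemokine genes Ccl3 and Ccl4 were then lower in Th2 cells, Ccl3 by -1.17 and -1.59 and Ccl4 by -1.14 and -1.01. With all arrays none of these passed the test, with Ccl3 at 0.77 and 0.34, the opposite sign, and Ccl4 at -0.66 and -0.53. Ccl3 itself read 5.54 on naive replicate 1, 11.40 and 11.31 on the other naive arrays, 9.98 to 10.60 in acute and 9.43 to 9.94 in chronic Th2 cells. Without that array Runx3 was higher by 1.06 and 0.73 (limma adjusted p = 0.000555 and 0.00364). Slamf7 was lower by -1.93 and -2.03 (adjusted p = 6.95e-05 and 4.83e-05). With all arrays neither passed the test, with Runx3 at 0.635 and 0.307 and Slamf7 at -1.23 and -1.34. Further genes that gained a call are counted but not all named. Of the 10 genes, the same 5 and 4 were called without that array, and 0 were called between the Th2 groups, where 0.0602% of all genes were.

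**Figure D3:**
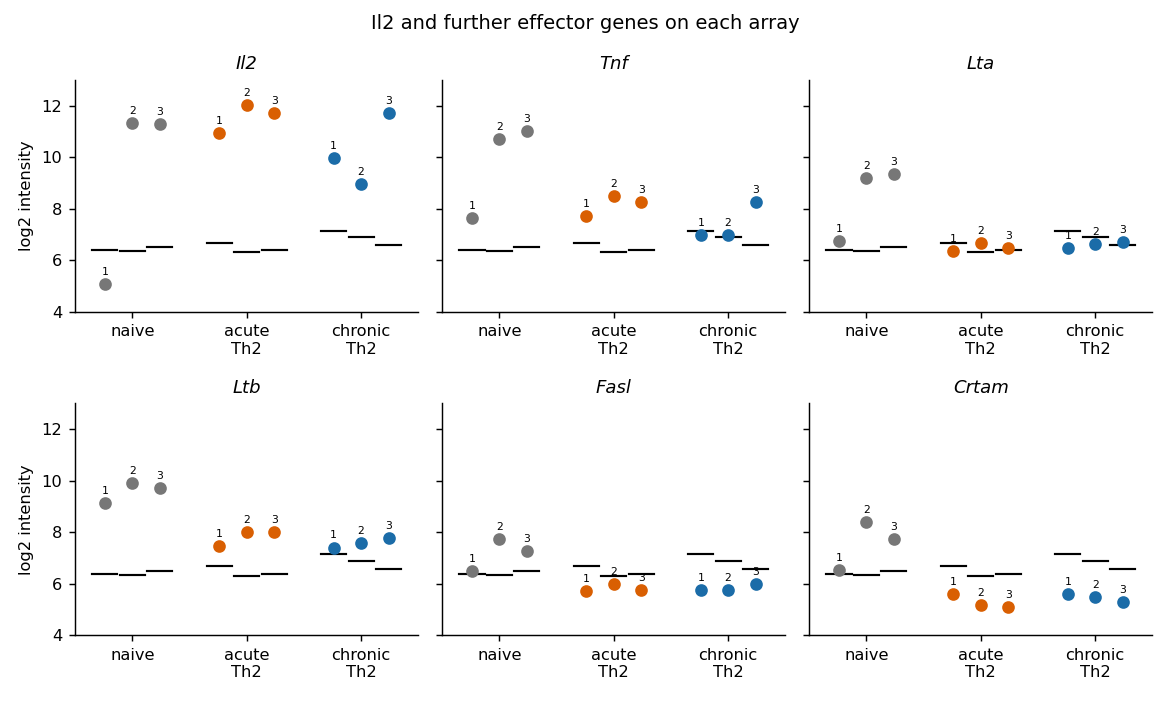
Log2 intensity (vertical axis) of Il2, Tnf, Lta, Ltb, Fasl and Crtam on each array, with dots numbered by replicate and black ticks at the 95th percentile of olfactory receptor genes on that array. Naive replicate 1 lies far below the other naive arrays in Il2, Lta and Tnf, and the Th2 arrays lie below naive replicates 2 and 3 in the other 5 genes.

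None of the other 7 granzymes, Gzmc, Gzmd, Gzme, Gzmf, Gzmg, Gzmm and Gzmn, passed the test in any comparison or was above background on any array. Their medians were 0.03 in acute and 0.14 in chronic Th2 cells, and 0 reached an unadjusted p of 0.05 against naive cells, which 16.3% and 25.6% of all genes did. The largest differences in size were 0.11 for Gzmc and -0.09 for Gzmm in acute Th2 cells. In chronic Th2 cells they were 0.20 for Gzme and 0.17 for Gzmc. Probes of similar granzyme genes may cross-read.

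Of 14 measured genes of granule loading, release and protection, 2 rose and 0 fell in acute Th2 cells and 2 rose and 1 fell in chronic Th2 cells, with medians of 0.49 and 0.10. Stx11, a syntaxin needed for granule fusion, was at 6.92, 8.07 and 7.91 on naive and 9.96 to 10.70 on Th2 arrays. It rose by 2.65 (limma adjusted p = 0.00106) and 2.71 (adjusted p = 0.000904). Cst7, cystatin F, an inhibitor of the proteases that activate granzymes, rose by 0.73 (adjusted p = 0.042) and 1.02 (adjusted p = 0.00864). Its acute call was lost in 5 of 9 single leave-outs, with an adjusted p up to 0.146.

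Ctsw, a cathepsin of cytotoxic lymphocytes, read 8.47, 7.01 and 7.04 on naive arrays and 5.97 to 6.37 on Th2 arrays. All Th2 arrays were under background and all naive arrays above it. It fell by 1.39 in chronic Th2 cells (limma adjusted p = 0.0456), and the acute difference of -1.34 missed the test (adjusted p = 0.0641). The chronic call was lost without any 1 of the 6 Th2 arrays, with an adjusted p up to 0.155. Without naive replicate 1 the difference was -0.86 (adjusted p = 0.00239) and -0.91 (adjusted p = 0.00151).

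Among 12 measured killer lectin-like and related receptors, 0 rose and 2 fell in acute Th2 cells and 0 rose and 1 fell in chronic Th2 cells, with medians of -0.17 and -0.25. Crtam, a receptor of activated cytotoxic T cells, read 6.53, 8.40 and 7.73 on naive and 5.12 to 5.60 on Th2 arrays. It fell by 2.25 (limma adjusted p = 0.0118) and 2.10 (adjusted p = 0.0155). Its calls were lost without acute Th2 replicate 2 or 3 (adjusted p up to 0.0598) and without chronic Th2 replicate 1 or 2 (up to 0.0594). Klrd1, which encodes CD94, was under background on all 9 arrays. It fell by 1.18 in acute Th2 cells (adjusted p = 0.012), a call lost without acute Th2 replicate 2 or 3, and its chronic difference of -0.66 did not pass the test (adjusted p = 0.097).

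**Figure D4:**
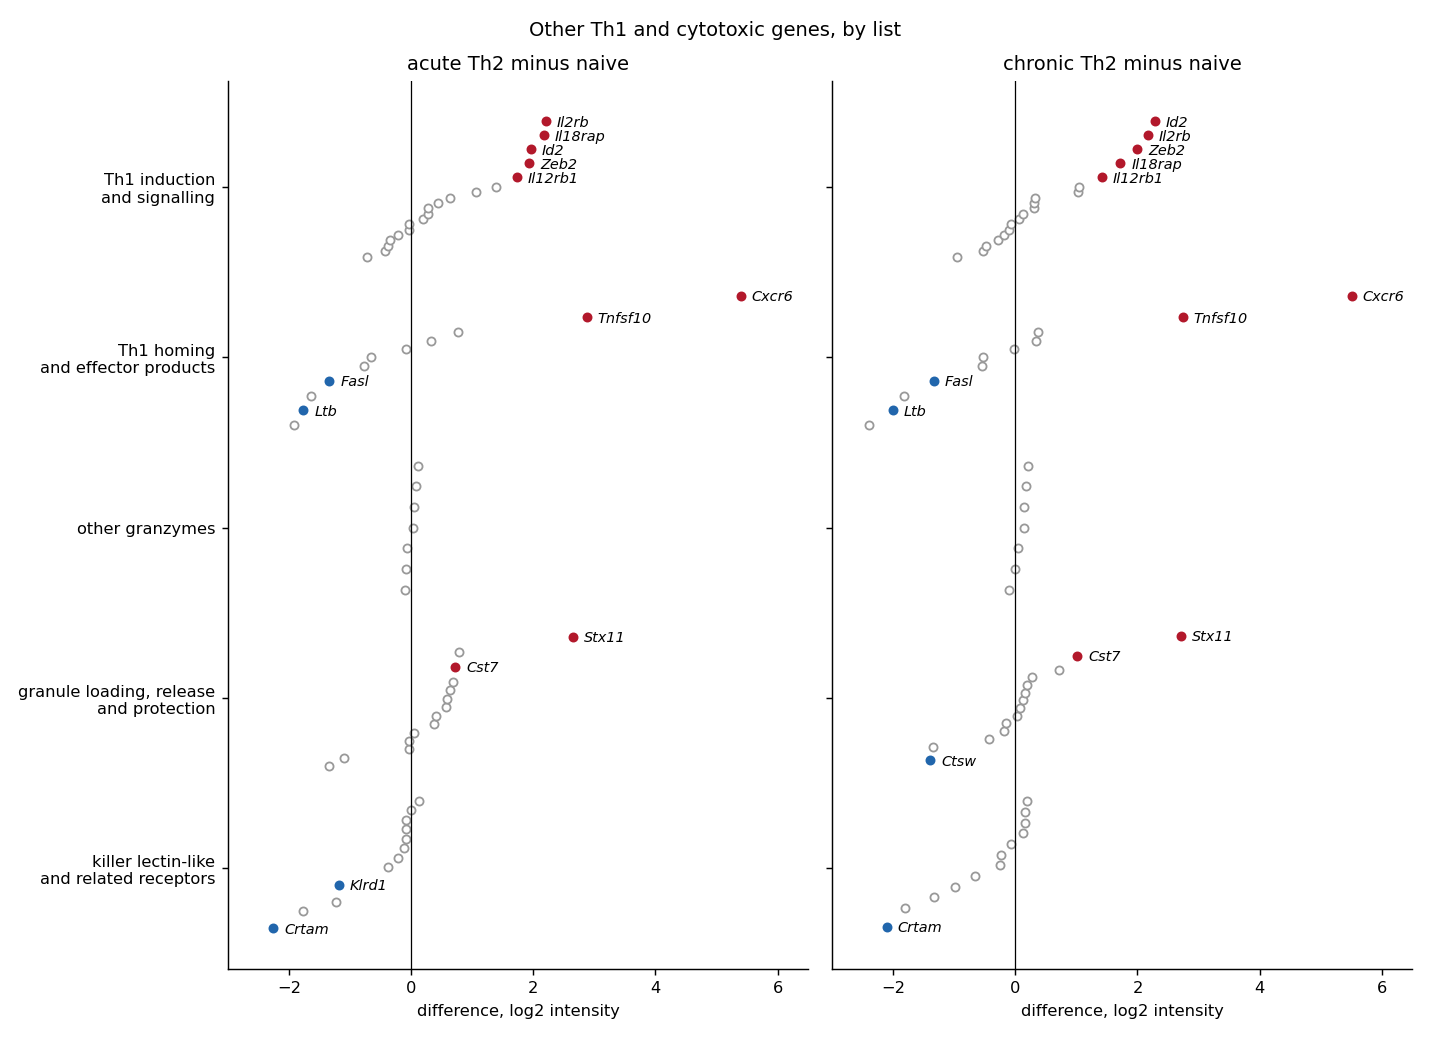
Difference in log2 intensity (horizontal axis) of 63 other Th1 and cytotoxic genes in 5 lists, for acute Th2 minus naive (left) and chronic Th2 minus naive (right). Red and blue named points rose or fell at an adjusted p under 0.05, and open points did not pass. The granzymes lie close to 0, and Cxcr6 is the farthest right, at 5.39 and 5.51.

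Between chronic and acute Th2 cells 0 of the 63 genes passed the test, where 0.0301% of all genes did (limma). An unadjusted p of 0.05 was reached by 4 of them and by 14.9% of all genes. The lowest adjusted p among them was 0.322, shared by Serpinb9 at -1.01 and Serpinb6b at -0.56, both inhibitors of granule proteases. In the other lists the largest differences in size were -0.45 for Il18rap, -0.35 for Bhlhe40, -0.76 for Tnf and -0.43 for Ccl3. They were 0.22 for Gzmd and 0.12 for Gzme among the granzymes, and -0.61 for Cd226 and 0.52 for Klrd1 among the receptors. Without naive replicate 1 and chronic Th2 replicate 3, Klrd1 was higher in chronic cells by 0.63, and Il18r1, Il18rap and Tnf were lower by -0.76, -0.82 and -1.18, where 5.45% of all genes were called in that comparison and 13.2% and 23.4% in those with naive cells. Chronic Th2 replicate 3 had the highest Il2 of its group, at 11.70 against 9.95 and 8.95, and the lowest Gzmb and Tbx21.

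The regulatory T cell markers Foxp3 and Ikzf2 rose together with Gzmb, Klrg1, Ifng and Tbx21. With Il2ra, all 3 markers were above background on every array, and their summed signal was 10.42 to 12.63 in naive, 13.43 to 13.47 in acute Th2 and 13.39 to 13.51 in chronic Th2 cells. Foxp3 rose by 1.41 (limma adjusted p = 0.00148) and 1.13 (adjusted p = 0.00502), and Ikzf2, which encodes Helios, by 1.42 (adjusted p = 0.0029) and 1.11 (adjusted p = 0.00977). Il2ra, which is also counted among the genes induced by stimulation, passed the test in neither comparison (1.88, adjusted p = 0.176, and 1.93, adjusted p = 0.113) and was lowest on naive replicate 1, at 9.39. The part of these markers in the result was not tested.

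As a description, the genes most alike in level over the 9 arrays were sought among 10126 genes above background in at least 1 group. For Tbx21 they were Txndc17, Smco4 and Slc12a2, with Pearson's r of 0.992, 0.978 and 0.974. For Ifng they were Ccr4, Il12rb1 and Adam19, with r of 0.991, 0.989 and 0.988. For Gzmb they were Ppp4r1, Plod2 and Pbx3, at 0.994, 0.993 and 0.991, and for Klrg1 Mapre2, Clcn5 and Niban1, at 0.996, 0.996 and 0.994. For Prf1 they were Btbd6, Usp2 and Hid1, at 0.987, 0.981 and 0.980. The 9 arrays fall into naive and Th2 cells and share 1 normalisation, so that any gene that separates these groups correlates highly.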

How the data were processed

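RNA of 9 samples was measured on Affymetrix arrays, 3 per group, with groups taken from the titles. The authors deposited log2 intensities, 1 for each probe set on each array, made with RMA per the submitters' processing notes, which also name limma. No version, build or annotation is given in the sources used here. RMA shares 1 distribution across arrays and compresses dim signals. Values were used as deposited. Of 34760 probe sets, 21640 name 1 gene. A gene was represented by the brightest of these over all arrays, giving 19937 genes. Detection calls and scan dates were not used here.

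Differences were tested two-sided in R 4.3.3 by moderated linear models (lmFit, contrasts.fit and eBayes of limma 3.58.1) on all 9 arrays with group as the only term, and adjusted by Benjamini and Hochberg over all genes. Calls were made at an adjusted p under 0.05. SE is of the moderated fit, and SD is of the 3 arrays. The code of the fit was tried on simulated independent normal values with a common spread. No simulated array stood apart, so this does not bear on the effect of such an array. The members, lists and alternatives were chosen with earlier results of these data known. All 10 members are named, and of each list and comparison up to 4 called genes with the largest difference, or 2 as values where none was called. Il2, Tnf, Lta, Ccl3, Ccl4, Cxcr3, Il12rb2, Il18r1, Runx3 and Slamf7 were added after their values were seen. Il12rb1 is also described beyond this rule. Alternatives were leaving out arrays, the arrays of the compared groups alone, a replicate block, array weights, quantile normalisation, a variance trend, a filter on dim genes and other uses of probe sets.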

Additional observations from a re-analysis of the deposited data

How the results depend on the processing

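Ifng, Gzmb and Klrg1 kept their direction and their call against naive cells under all 18 alternatives, with adjusted p-values of at most 0.00495, 0.003 and 0.00219. Tbx21 lost its acute call in 8 and its chronic call in 3 of 18, and Gzma its acute call in 9 of 17. On leaving out 1 array at a time the members called ranged from 3 to 5 in acute and 3 to 5 in chronic Th2 cells and stayed at 0 between the Th2 groups, and the other genes called ranged from 8 to 27, 9 to 26 and at 0. Of all genes, 3.28% to 12.2%, 3.68% to 17.2% and 0% to 0.0602% were called in these leave-outs. With only the 6 arrays compared, 3 members were called in acute Th2 cells and 8 other genes in chronic Th2 cells, fewer arrays entering the fit. Of all genes, 3.82% and 3.44% were called in these 6-array comparisons. Without naive replicate 1 and chronic Th2 replicate 3, 28, 27 and 4 other genes were called in the 3 comparisons. Of all genes, 13.2%, 23.4% and 5.45% were called without both arrays. With array weights, 32, 26 and 15 other genes were called in the 3 comparisons, where 20.2%, 23.4% and 33.7% of all genes were. Between the Th2 groups 3 members were called with array weights (Tbx21 0.67, Nkg7 0.94 and Gzmk 0.32). The weights ran from 0.165 for naive replicate 1 to 8.23 for acute Th2 replicate 3.

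Prf1 passed the test at -0.49 in acute Th2 cells with array weights and at -0.52 in chronic Th2 cells without both arrays. Nkg7 passed in chronic Th2 cells at 1.11, 1.26 and 1.32 without chronic Th2 replicate 3, without both arrays and with array weights. Among the 10 members, signs turned only where no call was made. With quantile normalisation, Eomes, Hlx and Prf1 were at -0.095, -0.132 and -0.066 between the Th2 groups, and Hlx at -0.137 in chronic Th2 cells. With array weights, Hlx was at -0.062 in chronic and Gzmk at -0.083 in acute Th2 cells, and Prf1 at -0.002 between the Th2 groups. Without both arrays, Hlx was at -0.084 in chronic Th2 cells and Prf1 at -0.116 between the Th2 groups. On leaving out 1 array at a time, Hlx ranged from -0.089 to 0.039 in acute cells, from -0.077 to 0.050 in chronic cells and from -0.008 to 0.023 between them, Gzmk from -0.160 to 0.134 in acute cells, and Prf1 from -0.116 to 0.132 between the Th2 groups. The cause was not tested.

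The labels do not say that replicate numbers mark shared animals or batches. In their deviations from the group means, 6 of 9 same-numbered pairs and 2 of 18 differently numbered pairs correlated above 0.1. A sample was most like its own number in another group in 10 of 18 cases, at most a hint from the data and not the design. These cases share arrays and are not independent, and the number to be met by chance was not worked out. Since not every same-numbered pair passed 0.1, the numbers were not taken as a pairing. With the replicate number as a block, 4, 4 and 0 members and 14, 14 and 0 other genes were called. Of all genes, 6.32%, 9.25% and 0% were called under the block. Tbx21 lost its acute call there (limma adjusted p = 0.0544). A filter on dim genes leaves Eomes, Hlx, Gzma, Gzmk and Nkg7 without a value. Signals under background limit what can be said of these genes.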
